A study of Homo sapiens with 22 samples.

Results

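A set of 9 neural lineage genes was examined for H3R2me2a, the asymmetric dimethylation of arginine 2 on histone H3, in NT2/D1, an embryonal carcinoma cell line of human origin. They were ZIC2, GLI3, EN1, SOX1, POU3F1, POU3F3, NES, MAP2 and TUBB3. A region belonged to one of these genes when the authors' promoter or enhancer list gave that gene as the name of the nearest transcript. This rule found 16 regions at the 9 genes, out of 8819 regions that carry 6697 different gene names. The genes were taken because they have regions, so the presence of a region at each is part of the choice and not a result. They were thus chosen by measured values, the region calls of the promoter and enhancer lists.

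The lists came from 2 chromatin immunoprecipitation sequencing libraries made with a rat monoclonal antibody. One was from CRISPR/Cas9 control cells without all-trans retinoic acid (ATRA), the other from the same kind of control cells given 1 µM ATRA for 3 days. Both kept PRMT6, and the PRMT6-deleted cells and the other antibodies of the series (20 of its 22 samples) were not analysed here. With 1 library per condition there is no replicate error, and the labels do not say whether the control line was a single clone. Markers of the cell type were not measured in the lists.

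PRMT6 is the main methyltransferase for this arginine, and the mark is known to interfere with the methylation of the nearby lysine 4 of H3, which marks active promoters. NT2/D1 cells are pluripotent and can form neurons when they are kept in retinoic acid. The 9 genes cover several steps of that path: patterning factors of the early neural plate, transcription factors of neural progenitors, and proteins of the progenitor and neuronal cytoskeleton.

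Each region carried tags, that is, counted sequence reads, in up to 2 columns. Cluster III (6519 regions) was deposited under the ATRA library and had a column of MACS tags. Cluster II (2098 regions) and cluster I (202 regions) were deposited under the library without ATRA, and cluster II had no MACS tags. The promoter and enhancer lists had a column named tagcount for every region. The sources used here do not say which library tagcount was read in. In cluster I, where both columns exist, tagcount was 0 to 8 tags above the MACS tags of the library without ATRA (median 3). The tag ratio below is (MACS tags + 1)/(tagcount + 1) for a cluster III region. Its intervals are exact 95% intervals of the ratio of a pair of Poisson counts, without the added 1, and cover counting error only. Depths are unknown, so a ratio was read against the median over all cluster III regions (2.02) and not against 1. An interval was read against the median without the added 1 (2.06). Cluster III regions lay above 1 with few exceptions: tagcount exceeded MACS tags at 83 of them and equalled it at 24. In a population of cells, more marked cells and more mark per cell cannot be told apart. All region coordinates are on hg19.

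Most neural gene regions lay outside the windows around transcript starts. Of the 16 regions, 5 were in start windows (the class that the file headers call TSS), 5 in introns, 3 in exons, 3 in the upstream class (within 5000 bp) and 0 in intergenic sequence. Over all regions the shares were 53.3% in start windows, 23.0% in introns, 2.67% in exons, 3.53% upstream and 17.5% intergenic. The median distance to a start was 2777.5 bp against 933 bp over all regions, and 4 of 16 regions (25%, exact binomial 95% interval 7.27 to 52.4) lay within 1 kb, against 50.5% of all regions. The enhancer list held 10 of the 16 (62.5%, 35.4 to 84.8), against 52.0% of all regions. Cluster III held 15 of the 16 (93.75%, 69.8 to 99.8) and cluster II held 1, against 73.9% and 23.8% of all regions. In start windows the neural share was 31.25% (11.0 to 58.7). The intervals for start windows, for 1 kb, for the enhancer list and for cluster III all contain the shares over all regions, so none of these 4 shares stood apart from the background. The same held for introns and intergenic sequence. The exon and upstream shares were each 18.75% (4.05 to 45.65), and these intervals lay above the 2.67% and 3.53% of all regions. Each of these shares rests on 3 regions, and the upstream ones include a pair of ZIC2 regions 927 bp apart. The members share genes and neighbourhoods, so all these intervals are narrower than the evidence warrants. No allowance was made for comparing several shares, so the exon and upstream shares are descriptions only.

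**Figure D1:**
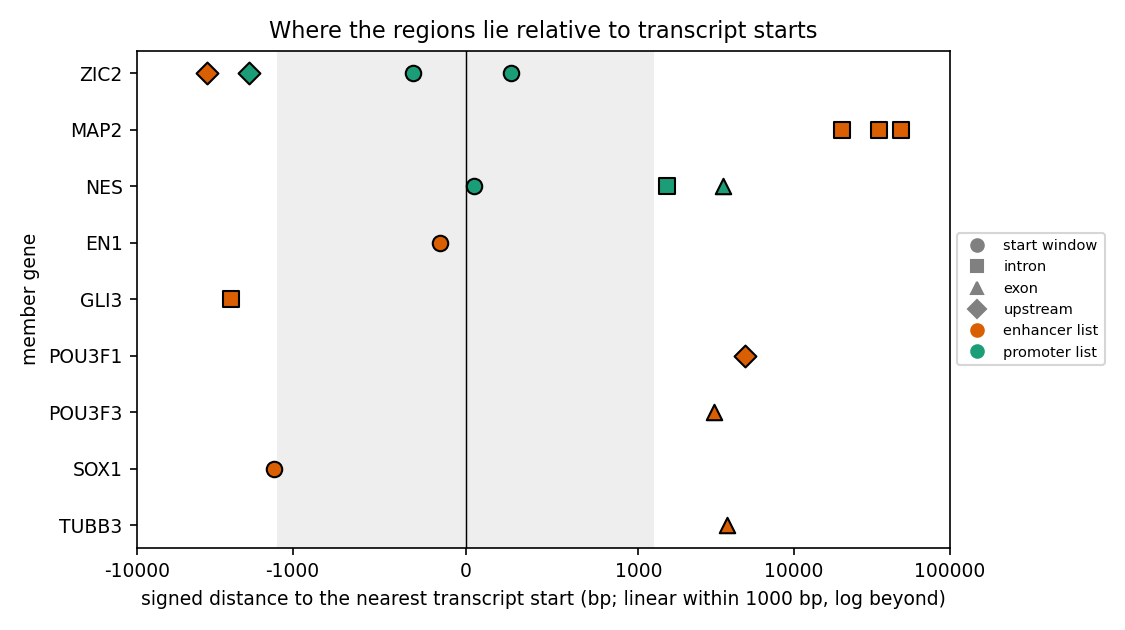
Signed distance in bp from each of the 16 regions to the nearest transcript start (horizontal axis, linear within 1000 bp and logarithmic beyond), by gene; positive values are downstream of the start, symbols give the authors' position class, colours the list, and the grey band has the width named for the start window in the file headers. ZIC2, NES and EN1 have regions inside the band, the SOX1 region lies at -1315 bp, past the edge of the band although the authors gave it the start window class, and the 3 MAP2 regions lie farthest away, at 20236 to 48531 bp.

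ZIC2, a zinc finger transcription factor of the neural plate and forebrain, had the most regions. It had 4, all in cluster III, between 100630218 and 100637663 on chromosome 13. The first (100630218 to 100630697, enhancer list) had 46 MACS tags and a tagcount of 35. The second (100631625 to 100632214, promoter list) had 48 and 29. Both were of the upstream class, 3562 and 1908 bp before the start of the full-length transcript ENST00000376335. The third (100636002 to 100636598) had 50 MACS tags and a tagcount of 33, and the fourth (100637058 to 100637663) had 46 and 29. These promoter-list regions were in the start windows of ENST00000490085 and ENST00000477213, at -304 and 263 bp. In GENCODE 44 those transcripts have no defined coding sequence, and on GRCh38 they begin 2505 and 3005 bp downstream of the RefSeq start of ZIC2. The 4 regions therefore lay on both sides of the main start, and none was assigned to it within 1 kb.

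The 250 bases before that RefSeq start are shown because the ZIC2 regions flank them (GRCh38.p14, chr13:99981534-99981783, plus strand). They are printed 5′ to 3′, with capitals for the GC box GGGCGG on either strand, a pair of which overlap wherever the run of capitals is longer than the motif.
ZIC2: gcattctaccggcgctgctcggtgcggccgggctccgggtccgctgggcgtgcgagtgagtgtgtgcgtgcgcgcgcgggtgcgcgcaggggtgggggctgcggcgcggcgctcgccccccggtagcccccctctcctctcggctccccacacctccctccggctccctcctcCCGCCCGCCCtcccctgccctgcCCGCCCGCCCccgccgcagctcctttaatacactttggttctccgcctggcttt
The sequence held 4 GC boxes, 75.6% G and C, and a ratio of observed to expected CpG of 0.895, at percentiles 91.0 and 81.1 of the 35116 promoters in the RefSeq table. A GC box was present in 42.6% of those promoters.

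The 4 ZIC2 regions were alike in both columns, with 46 to 50 MACS tags and a tagcount of 29 to 35. Their tag ratios were 1.31, 1.63, 1.5 and 1.57, each below the median of all cluster III regions. Summed over the gene, 190 MACS tags stood against a tagcount of 126, a ratio of 1.504 (95% interval 1.20 to 1.90), and the upper bound was below the median without the added 1 (2.06). The exact intervals of the 4 separate ratios overlapped each other. Ratios also differ by list: the cluster III median, with the added 1, was 1.74 in the promoter list and 2.57 in the enhancer list. The summed ZIC2 interval contained the promoter-list median. Within their own list the 3 promoter-list regions lay at percentiles 26.7 to 39.8, and the enhancer-list region at 9.92.

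Regions of other names surrounded ZIC2. On chromosome 13, 11 cluster III regions lay in 38.4 kb (100609830 to 100648244). Of these, 4 carried the name ZIC2, 4 the name of its neighbour ZIC5, which encodes another ZIC factor, and 3 the name of the non-coding gene LINC00554. ZIC5 regions had 39 to 51 MACS tags and a tagcount of 21 to 50, and LINC00554 regions 47 to 90 and 40 to 85. The strongest was an exonic LINC00554 region (100647222 to 100648244) with 90 MACS tags and a tagcount of 85. Of the 11 ratios 10 were below the cluster III median. The exception was an intronic ZIC5 region (100620458 to 100621033) with 47 MACS tags, a tagcount of 21 and a ratio of 2.18. Over the whole stretch the ratio was 1.34 (1.18 to 1.53), from 558 MACS tags and a tagcount of 416.

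**Figure D2:**
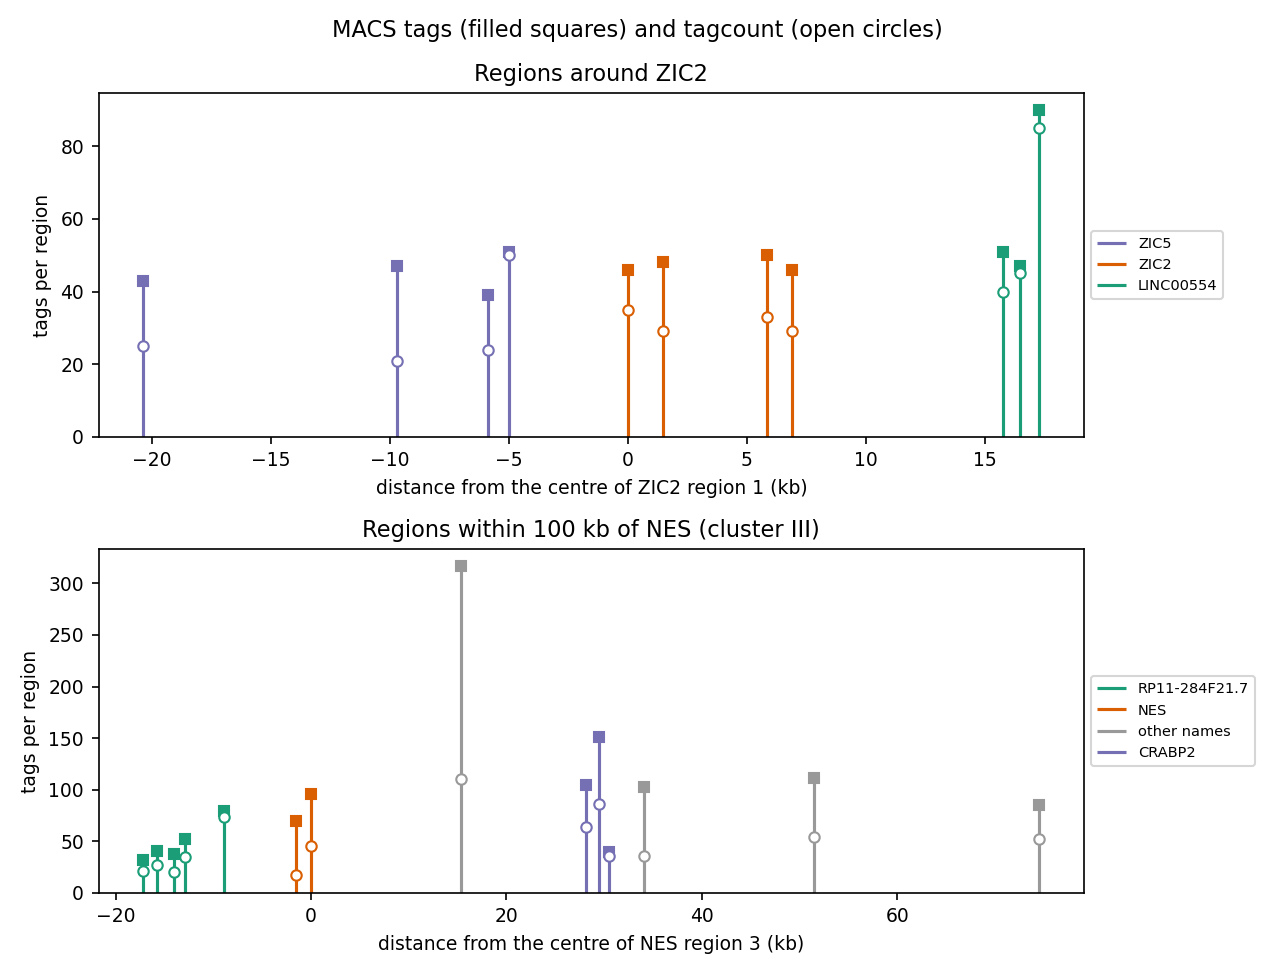
Tags per region (vertical axis) of cluster III regions by distance in kb from ZIC2 region 1 (top) and from NES region 3 at the NES start (bottom), with filled squares for MACS tags and open circles for tagcount, coloured by nearest gene name. Around ZIC2, MACS tags and tagcount nearly coincide at one ZIC5 region (51 and 50) and at 2 of the 3 LINC00554 regions (47 and 45, 90 and 85), while around NES the tallest region is named RP11-66D17.3 (317 MACS tags).

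GLI3, a zinc finger factor that mediates and represses Hedgehog signalling in the neural tube and limb, had 1 region. It was intronic (chromosome 7, 42194273 to 42194696, enhancer list), 2482 bp before the start of ENST00000479210. It had 39 MACS tags (95% Poisson interval 27.7 to 53.3) and a tagcount of 14 (7.65 to 23.5). The ratio was 2.67 (1.48 to 5.55), and no other region lay within 100 kb. EN1, a homeobox factor of the midbrain and hindbrain boundary, had 1 region in the start window of ENST00000295206, 145 bp before it (chromosome 2, 119605275 to 119605750). It had 37 MACS tags (26.1 to 51.0) and a tagcount of 14, a ratio of 2.53 (1.396 to 5.29). Although it lay at a start, this region was in the enhancer list, one of 397 cluster III regions of that list within 1 kb of a start. GLI3 and EN1 were low in both columns: MACS tags at percentiles 24.6 and 18.5 of cluster III and tagcount at percentile 20.3 for each.

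SOX1, a SOXB1 factor and an early marker of committed neural progenitors, had 1 enhancer-list region (chromosome 13, 112720254 to 112720774). It was of the start window class, 1315 bp before the start of ENST00000330949, with 45 MACS tags and a tagcount of 21 (ratio 2.09, 1.25 to 3.79). A cluster I region named RP11-450H6.3, with 36 MACS tags in the library without ATRA and a tagcount of 38, lay 12309 bp from it (112733084 to 112733445). It was the only cluster I region within 100 kb of any neural gene region. SOX1 thus had a cluster III region and a cluster I region as neighbours.

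POU3F1 and POU3F3 encode POU homeodomain factors of neural progenitors and of glia, and had 1 enhancer-list region each. The POU3F1 region (chromosome 1, 38507336 to 38507881) had 52 MACS tags (38.8 to 68.2) and a tagcount of 19 (11.4 to 29.7). Its ratio was 2.65 (1.59 to 4.90). It was of the upstream class, while the signed distance, 4811 bp from the start of ENST00000373012, placed it on the downstream side. This combination was found at 100 of the 311 upstream-class regions. The POU3F3 region was exonic, 3073 bp from the start of ENST00000361360 (chromosome 2, 105474880 to 105475354). It had 38 MACS tags and a tagcount of 38, each with an interval of 26.9 to 52.2. The POU3F3 ratio of 1 (0.621 to 1.61) was the lowest of the 15 and lay at percentile 1.46 of cluster III. The intervals of the POU3F1 and POU3F3 ratios overlapped only between 1.59 and 1.61. By tagcount POU3F3 was at percentile 79.3 of cluster III and POU3F1 at 34.6, whereas by MACS tags POU3F3 was the lower, at 21.6 against 53.6.

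NES encodes nestin, an intermediate filament protein of neural progenitors, and had regions in cluster II and in cluster III. Its 3 regions lay within 4236 bp on chromosome 1 and all were in the promoter list. The region at the start (156646775 to 156647526, 51 bp from the start of ENST00000368223) had 96 MACS tags (77.8 to 117.2) and a tagcount of 45 (32.8 to 60.2). The intronic region (156645356 to 156645877, 1528 bp from the start) had 70 MACS tags (54.6 to 88.4) and a tagcount of 17 (9.90 to 27.2). The exonic region (156643291 to 156643816, 3485 bp from the start) was the one in cluster II, with a tagcount of 49 (36.2 to 64.8). Its second interval in the cluster II list, whose library is not given, was wider (156643136 to 156644165, 1030 bp). The tagcount interval of the intronic region did not overlap those of the other two. No cluster II region had a tagcount under 35, and the exonic region was at percentile 25.8 of that cluster, so its tagcount is bound up with its cluster.

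The 250 bases before the NES start are shown because a region lies there (RefSeq, GRCh38.p14, chr1:156677408-156677657, minus strand), with the same capitals.
NES: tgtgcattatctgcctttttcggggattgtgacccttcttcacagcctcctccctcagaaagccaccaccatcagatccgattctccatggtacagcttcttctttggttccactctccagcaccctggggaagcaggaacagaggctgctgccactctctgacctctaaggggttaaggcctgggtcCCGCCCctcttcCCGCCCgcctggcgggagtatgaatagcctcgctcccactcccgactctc
This sequence held 2 GC boxes, 58% G and C (percentile 49.6), and a ratio of observed to expected CpG of 0.404 (percentile 41.2), so it was nearer the middle of the table than the ZIC2 sequence. It also held 1 nuclear receptor core motif, AGGTCA, searched on both strands, which 12.1% of the promoters hold. The 10 promoters in the table for 7 of the 9 genes (EN1 and GLI3 had none) held no direct repeat of AGGTCA with a spacer of 5 or of 2 bases, searched on both strands, and each of these exact repeats was found in 1 of the 35116 promoters. A GC box was found in 5 of the 10, CCAAT in 4 (32.01% of all promoters), the E box CANNTG in 3 (61.8%) and TATAAA in 0 (10.7%). These windows are not the regions themselves, whose sequence was not read here.

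The intronic NES region had a tag ratio of 3.94 (2.40 to 7.46), at percentile 84.1 of cluster III and at 99.0 among its promoter-list regions. At the NES start the ratio was 2.11 (1.48 to 3.11), percentile 53.6. The 2 intervals overlapped. Within 100 kb NES had 17 regions of other names, 12 in cluster III and 5 in cluster II, the most of the 9 genes. Among them were 6 named RP11-284F21.7, 3 named CRABP2 for a retinoic acid binding protein, and 1 named RP11-66D17.3 (156661549 to 156663513), which had 317 MACS tags and a tagcount of 110.

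MAP2, which encodes a microtubule-associated protein of neuronal dendrites, had the highest MACS tag value and the highest ratio of the 9 genes. Its 3 regions were intronic, in the enhancer list and in cluster III, on chromosome 2. The first (210337103 to 210337635, 48531 bp from the start of ENST00000199940) had 65 MACS tags (50.2 to 82.8) and a tagcount of 16 (9.14 to 25.98). The second (210464768 to 210465511, 20236 bp from the start of ENST00000392194) had 95 (76.9 to 116.1) and 18 (10.7 to 28.4). The third (210479305 to 210480160, 35192 bp from that start) had 100 (81.4 to 121.6) and 33 (22.7 to 46.3). In each of the 3 the intervals of the 2 columns did not overlap. Depths are unknown and the cluster III medians were 50 MACS tags and a tagcount of 24, so a gap between the columns is not particular to MAP2. The ratios were 3.88 (2.32 to 7.52), 5.05 (3.17 to 9.28) and 2.97 (2.03 to 4.64), and the lower bounds of the first and second lay above the cluster III median of 2.06, while that of the third lay just below it. Over the gene, 260 MACS tags stood against a tagcount of 67, a ratio of 3.84 (2.96 to 5.16). Its interval lay wholly above that of ZIC2 (1.20 to 1.90). The genes differ in list, however, as 3 of the 4 ZIC2 regions were in the promoter list. The cluster III median ratio, with the added 1, was 2.57 in the enhancer list and 1.74 in the promoter list. Within the enhancer list the MAP2 regions lay at percentiles 72.6, 83.3 and 58.7. Only the second had a lower bound above that list's median. The first and second regions were 127132 bp apart, and no region of another name lay within 100 kb of any of the 3.

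TUBB3, which encodes the neuronal class III beta-tubulin, had 1 exonic enhancer-list region, 3701 bp from the start of ENST00000304984 (chromosome 16, 90000296 to 90000728). It had 60 MACS tags (45.8 to 77.2) and a tagcount of 30 (20.2 to 42.8), a ratio of 1.97 (1.27 to 3.21). Per kb of region it had 138.6 MACS tags, above the 3 MAP2 regions at 116.8 to 127.7. Among the neural gene regions TUBB3 was narrow, at 433 bp against a median of 529.5 bp. ENST00000304984 was not found in GENCODE 44, so where it starts relative to the RefSeq starts of TUBB3 was not read.

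**Figure D3:**
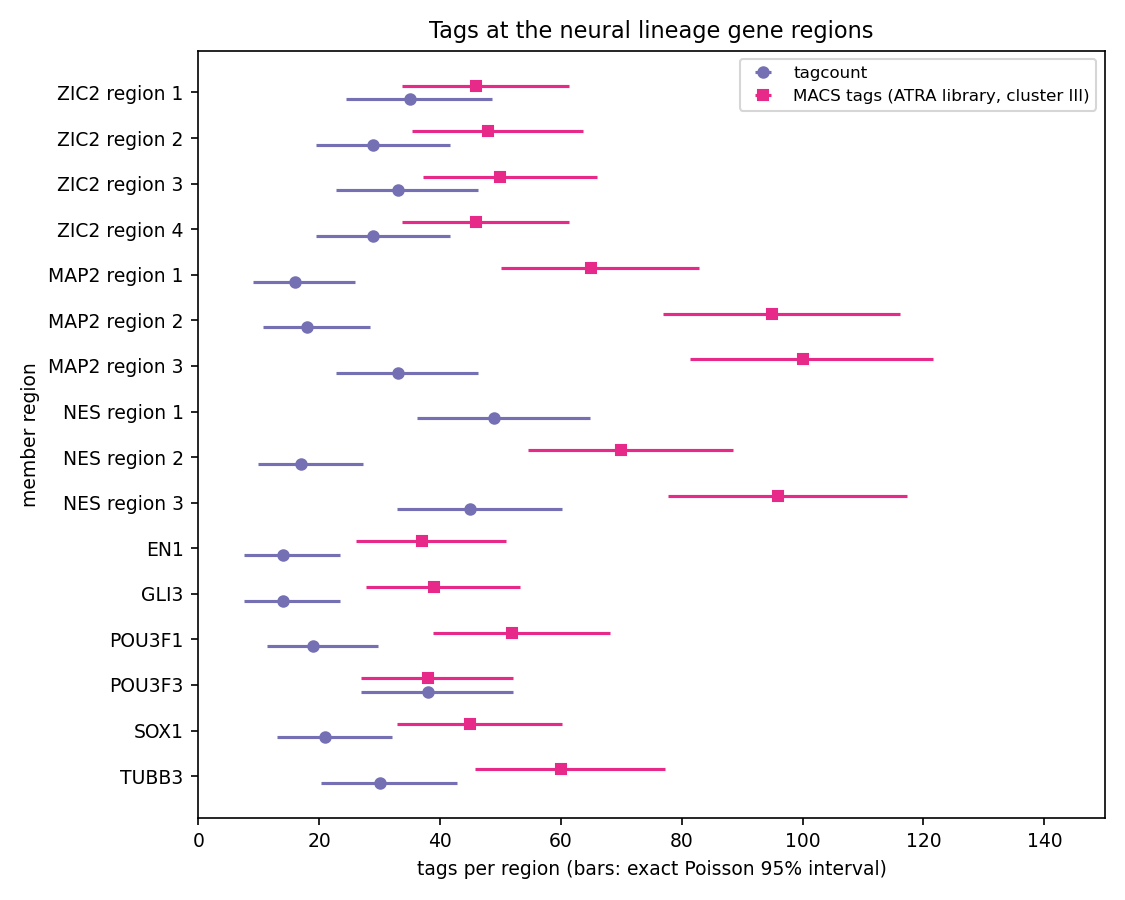
Tags per region (horizontal axis) at the 16 regions of the 9 genes, with circles for tagcount, squares for MACS tags where the region is in cluster III, and bars for exact Poisson 95% intervals. MAP2 regions 2 and 3 and NES region 3 reach 95 to 100 MACS tags, and the POU3F3 region has 38 tags in both columns.

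Across the 15 cluster III regions MACS tags ran from 37 (EN1) to 100 (MAP2), with a median of 50 that equals the median of the whole cluster. Tagcount ran from 14 (EN1 and GLI3) to 45 (NES), with a median of 29 against 24. By summed tags, the ratio of MAP2 (3.84) came first. GLI3 (2.67), NES (2.65, 1.99 to 3.64), POU3F1 (2.65), EN1 (2.53), SOX1 (2.09) and TUBB3 (1.97) followed. ZIC2 (1.504) and POU3F3 (1) came last. Each neighbouring pair in this order had overlapping intervals. The intervals of ZIC2 and POU3F3 lay below the cluster III median of 2.06, that of MAP2 lay above it, and those of the other 6 genes contained it. That median pools the lists, whose own cluster III medians, with the added 1, were 2.57 (enhancer) and 1.74 (promoter). The ZIC2 interval contained the promoter-list median, and 3 of the 4 ZIC2 regions were in that list. The POU3F3 and MAP2 regions were all in the enhancer list, and their intervals lay below and above its median. These medians are over single regions, whereas the ratios of ZIC2, MAP2 and NES come from summed tags. The intervals cover counting error only, and ratios in the cluster spread widely, with quartiles of 1.565 and 3.038 (with the added 1). How many other cluster III genes have intervals that miss the median was not counted, so these positions are descriptions only.

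A tag ratio of 4 or more, with the added 1, was reached by 15.8% of all cluster III regions and by 1 of the 15 neural regions, the second MAP2 region. In the enhancer list the background was 26.3% (1 of 10 neural regions) and in the promoter list 0.997% (0 of 5). At 2-fold the background was 51.6% and the neural count 9 of 15, with 7 of 10 against 65.2% in the enhancer list and 2 of 5 against 32.5% in the promoter list. These counts are near the background. Membership of cluster III may itself rest on these tags, so nothing further is read from them. The intronic NES region (3.94) and the first MAP2 region (3.88) lay just under the 4-fold line. Without the added 1 their ratios were 4.12 and 4.06, past that line, so the counts at 4-fold depend on the added 1. The background was not counted without it. The median ratio of the 15 regions was 2.11 against 2.02, that of the 10 enhancer-list regions 2.59 against 2.57, and that of the 5 promoter-list regions 1.63 against 1.74.

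**Figure D4:**
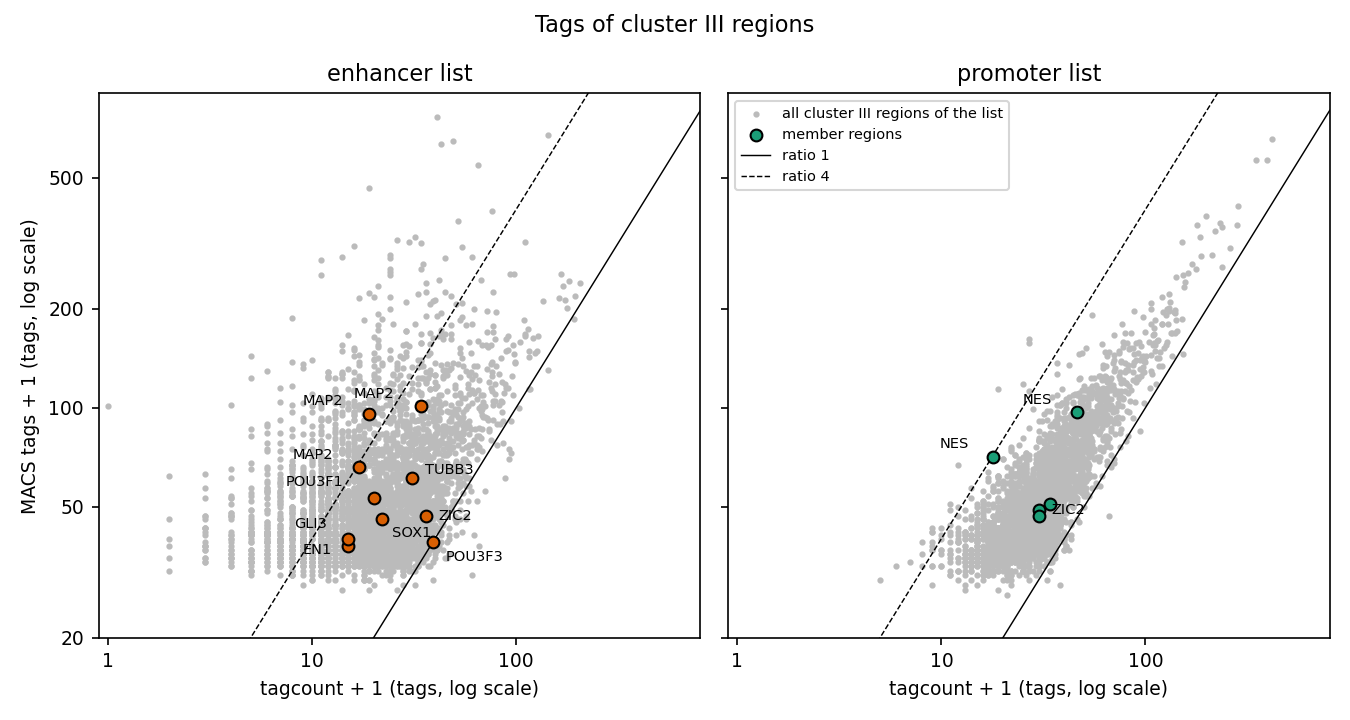
MACS tags + 1 against tagcount + 1, both in tags on log scales, for all cluster III regions (grey) of the enhancer list (left) and promoter list (right), with the 15 neural gene regions in colour and lines at ratios 1 and 4. The second MAP2 region lies above the line of ratio 4 (ratio 5.05), and POU3F3 lies on the line of ratio 1.

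In the families of the 9 genes, some genes were named as nearest to a region and others were not. Each family holds a gene chosen for having regions, so at least 1 named gene in each was fixed by the choice. The family counts are therefore descriptions only, given beside the 20.8% of all protein-coding symbols that were named. Among ZIC factors ZIC2 and ZIC5 of 5 genes were named, among POU class III factors POU3F1 and POU3F3 of 4, among engrailed factors EN1 of 2, and among SOXB1 factors SOX1 and SOX2 of 3. The SOX2 region was intronic, 41642 bp from a start, with 40 MACS tags and a tagcount of 14. Of 7 GLI and GLIS genes 4 were named: GLI1, GLI2, GLI3 and GLIS2. GLI1, a target and effector of Hedgehog signalling, had 3 promoter-list regions, 1 of them in cluster II (tagcount 35). GLI2 had a promoter-list region 78 bp from a start (41 MACS tags, tagcount 14) and an intronic one (32 and 9). In the cytoskeletal families few genes were named, as over all genes, where 20.8% of protein-coding symbols were. NES was the one named gene of 8 neural intermediate filament genes, MAP2 the one of 6 MAP genes, and TUBB3 and TUBB were the named ones of 8 beta-tubulin genes. TUBB, a broadly expressed beta-tubulin, had 2 promoter-list regions at starts (88 and 67 MACS tags, tagcount 44 and 45).

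In a wider list of 66 neural lineage genes, 16 were named (24.2%, 14.5 to 36.4), against 20.8% of 20056 RefSeq protein-coding symbols. The 16 include the 9 genes chosen for having regions, so this share is a description only. Regions within 1 kb of a start were nearest to 9.09% of the list and to 16.1% of the protein-coding symbols. The other 7 named genes were SOX2, PAX3, PAX7, LMX1A, ZIC5, GLI1 and GLI2, with 16 regions, 14 in cluster III and 2 in cluster II, and 10 in the enhancer list. PAX3, a paired-box factor of the dorsal neural tube and neural crest, had 3 enhancer-list regions with 34, 86 and 122 MACS tags and tagcounts of 11, 18 and 36. LMX1A, a LIM homeobox factor of midbrain dopaminergic progenitors, had 2 intronic regions (39 and 50 MACS tags, tagcount 21 and 19). PAX7 had 1 cluster II region, 1217 bp before a start (tagcount 36). Of 18 genes of neuronal structure and synapse in the list, MAP2, TUBB3 and NES were named and the other 15 were not, against 20.8% of protein-coding symbols named. The named ones are all among the 9 chosen genes, so this count is a description only.

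Genes with the same number of regions in each cluster and list were ranked by the Euclidean distance of their summed MACS tags and tagcount on the log2(tags + 1) scale, over the 2 columns. Of 107 such genes for MAP2, the nearest were ITGA11 (245 MACS tags, tagcount 64) and PAX3 (242 and 65). For ZIC2 there were 3 such genes, with RPL22P19 (163 and 107) and RIMKLB (316 and 204) nearest. For NES there were 4, with GLI1 (108 and 96, against 166 and 111 for NES with cluster II included) and MLF2 (205 and 203) nearest.

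HOX and pluripotency genes are given side by side with the neural genes. HOX genes, which pattern the body axis, had 14 regions at 8 genes, all in cluster III. Of these, 8 lay within 1 kb of a start, and the median ratio was 2.97. Genes of pluripotency (POU5F1, LIN28A, LIN28B, SALL4, SOX2, LEFTY1, LEFTY2 and TRIM71) had 15 regions at 8 genes, with 6 in cluster III, 7 in cluster II and 2 in cluster I, and 5 within 1 kb of a start. The shares within 1 kb were 25% for neural, 57.1% (28.9 to 82.3) for HOX and 33.3% (11.8 to 61.6) for pluripotency genes, with overlapping intervals. The median ratio of the 6 cluster III regions was 2.11. The cluster III share was 93.75% for neural, 100% (76.8 to 100) for HOX and 40% (16.3 to 67.7) for pluripotency genes. The intervals of the neural and pluripotency shares did not overlap, and those of the neural and HOX shares did. These groups were chosen with the cluster lists known, so the differences are descriptions with no test.

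**Figure D5:**
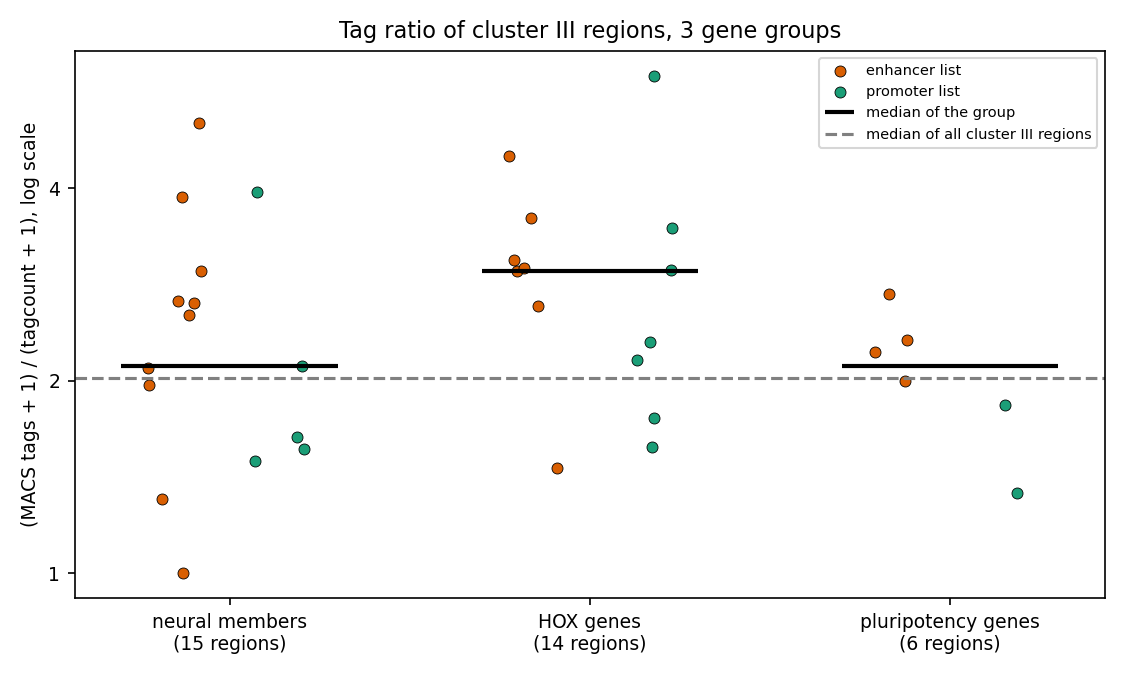
Tag ratio (log axis) of each cluster III region of the neural, HOX and pluripotency genes, with colours for the list, a black bar for the group median and a dashed line for the median of all cluster III regions. Neural gene regions spread from 1 to 5.05 on both sides of the dashed line, with a median of 2.11, and 11 of the 14 HOX regions lie above it.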

How the data were processed

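The authors deposited 5 lists of regions from 2 of the 22 samples, on build hg19 (GRCh37). bcl2fastq, Bowtie2, MACS 1.4 and deepTools are named with no role or order, per the submitters' processing notes. MACS tags and tagcount were deposited as whole-number counts per region with no scaling, per the file headers. The control, the criteria for clusters and classes, the library of tagcount and the sequencing depth are not stated in these sources.

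The lists were joined by exact region coordinates. Every region was in 1 cluster and in 1 of the promoter and enhancer lists. The first cluster II interval matched these lists and was used. Distances to starts are the authors' own. Poisson, binomial (Clopper-Pearson) and ratio intervals are exact at 95% and cover counting error only. PCR reads without molecular identifiers are not independent molecules. Percentiles count ties by their midpoint. With 1 library per condition no p-values were computed. The ratio and fold computation was tested on simulated data. Python 3.11.15, pandas 2.3.3 and scipy 1.17.1 were used.

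The members and gene lists were chosen with earlier results of these data known. All regions of the 9 genes are named. Other genes are named if they are in the neural or family lists with a region, within 100 kb of a member region, or 1 of the 2 nearest genes in tags with the same region counts. Further neighbours beyond those named are given as counts. RefSeq promoters (GRCh38.p14) and GENCODE 44 supplied names, transcript types and sequences, and their coordinates were not compared directly with those of the regions. The ZIC2 and NES sequences were related to regions only through the authors' distances to ENST00000376335 and ENST00000368223. Each of these transcripts starts 0 bp from the RefSeq start on GRCh38. Of 12 nearest transcripts 11 were found in GENCODE 44, all but ENST00000304984 of TUBB3.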

Additional observations from a re-analysis of the deposited data

How the results depend on the processing

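No paired analysis was possible because each condition had 1 library. With no replicates, none could be left out either. The number of neural gene regions, 16, became 39 when any region within 50 kb of one was counted whatever its name, and 6 when tagcount had to reach the median of all regions (32). With the window width of the file headers as the distance limit the count of regions near a start was 4, as at 1 kb, whereas the authors' start window class held 5, and with a limit of 5 kb the share was 81.25%. The shares in the enhancer list (45.5 to 75%) and in cluster III (90.9 to 91.7%) stayed within the binomial interval of the main share when only regions at or above the median width (513 bp) were kept, when ZIC2 was left out, and, for the enhancer list, when regions outside start windows were counted instead. The median percentile of MACS tags in cluster III (49.99) was 46.1 per kb of region and 45.5 with the strongest region of each gene. The median tag ratio of 2.11 was 2.65 without ZIC2, 2.53 from the summed tags of each gene, 2.12 with a pseudocount of 0.5, and 1.04 when divided by the cluster III median. Neural regions past the fold were 9 at 2-fold and 0 at 8-fold, 2 at 4-fold with a pseudocount of 0.5, and 0 at 4-fold after division by the median. Over all cluster III regions these counts were 1029 at 4-fold, 3367 at 2-fold, 224 at 8-fold, 1066 with the pseudocount of 0.5 and 215 after division. Of the 66 neural genes, 16 were named by any region, 6 by regions at most 1 kb from a start and 8 by regions at or above the median width. Unknown depth limits the tag ratio to comparisons within a cluster, and regions of 14 tags carry wide counting intervals.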

Other observations

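The neighbourhoods of the 9 genes differed in how crowded they were. The number of other regions within 100 kb ran from 0 to 19 per neural gene region (median 3), against a median of 2 and a range of 0 to 33 over all regions. The neural median counts a gene once per region, and regions of the same gene count as neighbours. Each ZIC2 region had 10 and each NES region 19, whereas POU3F1 had 5 and the regions of the other genes 0 or 1. The number was 0 at 3 of the 16 regions (18.8%), those of GLI3 and POU3F3 and the first MAP2 region, against 27% of all regions. POU3F1 had 5 neighbours of other names, 4 of them in cluster II. They were promoter-list regions at starts of SF3A3, a splicing factor gene (tagcount 125), UTP11L (126) and INPP5B (222), and an enhancer-list region at a start of FHL3 (38). The fifth, named RP5-884C9.3, was in cluster III (64 MACS tags, tagcount 33). EN1 had 1 neighbour, an intergenic cluster III region named MARCO with 42 MACS tags and a tagcount of 2 (ratio 14.3), 65838 bp away. TUBB3 had 1, a cluster III promoter-list region at the start of AFG3L1P (95 MACS tags, tagcount 57).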
